A study of Arabidopsis thaliana with 24 samples.

Results

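SWEET and TMT genes of Arabidopsis thaliana encode carriers that move sugars across the plasma membrane and the vacuolar membrane of leaf cells. The 19 genes described here were chosen by gene name, with no threshold on measured values, though earlier results of these data were known. They comprise 14 genes annotated as SWEET, 2 SWEET genes annotated under other symbols (AtVEX1, which is SWEET5, and SAG29, which is SWEET15) and the vacuolar importers TMT1, TMT2 and TMT3. Each has 1 probe set, among the 13513 probe sets with 1 annotated gene and the 22746 probe sets tested. No filter on low values was applied, so all 19 were tested in each comparison. The other large families of sugar carriers, SUC and STP, are not analysed here. The files name no genome build, so no coordinates are given. The locus identifiers of the genes with the largest changes are AT3G14770 for SWEET2, AT3G28007 for SWEET4, AT3G48740 for SWEET11, AT4G15920 for SWEET17, AT5G13170 for SAG29, AT1G20840 for TMT1 and AT4G35300 for TMT2.

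The measurements came from total RNA of mature leaves of plants grown on soil for 3 weeks, hybridised to 24 single-colour arrays. Columbia-0 wild type and the tbf1 mutant were each given 4 treatments, with 3 arrays per group. A spray of salicylic acid (SA, 1 mM) or of water was followed for 6 h. Infiltration of the peptide elf18 (10 µM) or of water was followed for 2 h. SA is a hormone of defence against biotrophic pathogens. Elf18 comes from bacterial elongation factor Tu and is perceived by the receptor EFR. TBF1 encodes a transcription factor related to heat shock factors, and comparing the genotypes shows how responses differ in its mutant. The labels number the replicates as biological without saying how separate their plants were, so the p-values describe spread from array to array.

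SWEET proteins are uniporters that let sugars run down their gradient in either direction, and several pathogens are known to induce SWEET genes of their hosts. Genes of clades I and II mainly encode hexose carriers. Those of clade III encode sucrose carriers of the plasma membrane, among which SWEET11 takes part in phloem loading in leaves. The clade IV proteins SWEET16 and SWEET17 sit in the vacuolar membrane, where SWEET17 exports fructose, and SWEET2 of clade I is also vacuolar and carries glucose. TMT proteins work in the other direction, loading sugars into the vacuole in exchange for protons.

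The deposited values are log2 expression values centred on each probe set's own median over the 24 arrays. A value of 1 therefore means 2-fold above that gene's median array, and levels of different genes cannot be set against each other. For the same reason the presence of leaf markers could not be read. Of 18 marker entries, 3 were matched to a probe set with 1 annotated gene, PSAN and PRK of photosynthesis and FAMA of guard cells. None of the companion cell markers was among them. In bulk leaf RNA, fewer cells of a type and less RNA per cell cannot be told apart. Arrays correlated across probe sets at 0.84 to 0.96 within groups and at no more than 0.68 between groups. The tbf1 transcript itself is not analysed here, so the mutant labels were not checked on it.

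The control probe sets differed between the groups. An index taken from 6 pairs of control probe sets (actin, GAPDH and ubiquitin), the mean log2 difference of the 5' minus the 3' probe set and commonly read as a sign of RNA quality, was lowest in tbf1 water spray (-1.67 ± 0.29, SD, n = 3) and tbf1 SA spray (-1.53 ± 0.05). It was -0.98 ± 0.16 in wild type elf18 and -0.34 ± 0.06 in tbf1 elf18. The other 4 groups lay between 0.31 and 0.84. The control probe sets are centred on their medians too, so the index compares groups and gives no absolute 5' to 3' ratio. This index is given beside the results below, and each contrast was refitted with the index as a covariate. Where the index differs between groups far more than within them, that fit cannot tell it from the treatment or genotype. Its standard errors then widen, so a lost call or turned sign does not say which of them a difference follows.

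**Figure D1:**
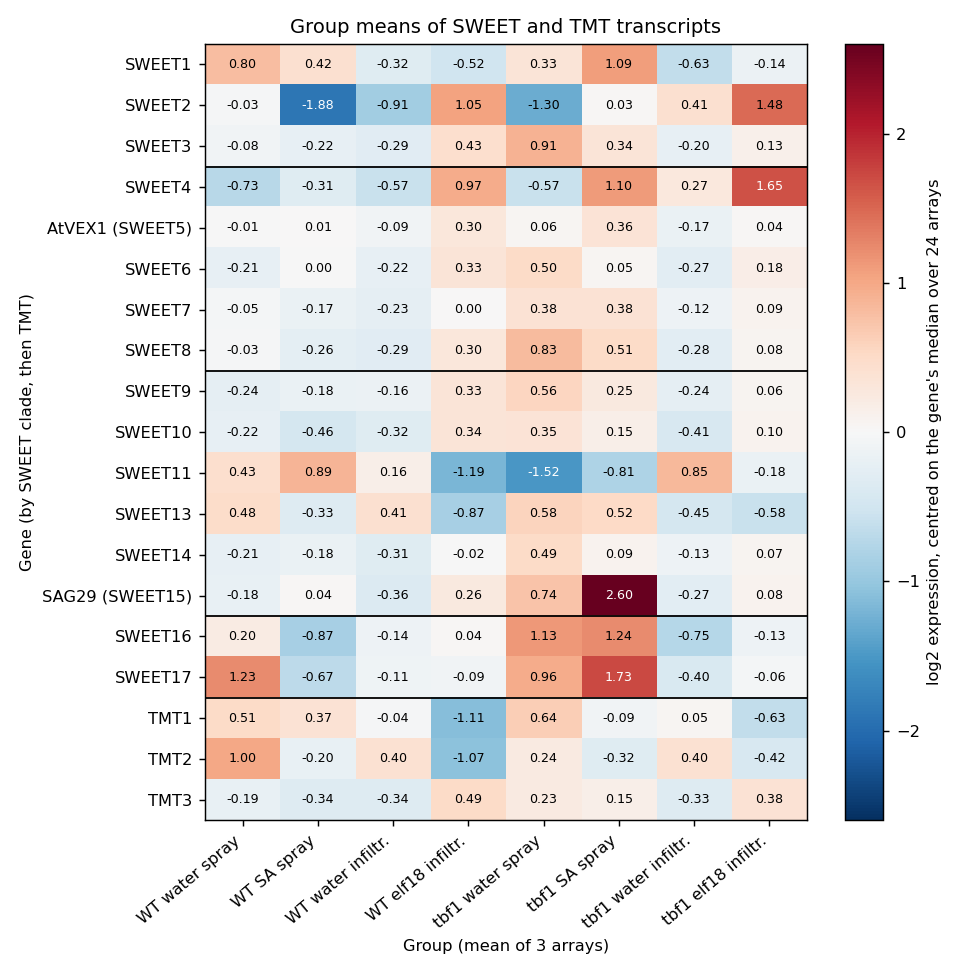
Mean centred log2 value (colour and printed number, 3 arrays per group) of the 19 genes (rows) in the 8 groups (columns). SWEET2 runs from -1.88 in wild type after SA to 1.48 in tbf1 after elf18, the widest span of group means, and AtVEX1 has the narrowest, 0.53.

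The span of the 8 group means, highest minus lowest, was 3.36 for SWEET2, 2.96 for SAG29, 2.41 for SWEET11, 2.40 for SWEET17, 2.38 for SWEET4, 2.11 for SWEET16 and 2.06 for TMT2. It was 1.20 or less for SWEET3, SWEET6, SWEET7, SWEET8, SWEET9, SWEET10, SWEET14, AtVEX1 and TMT3. Both the highest and the lowest group of SWEET16 and SWEET17 were SA-treated, tbf1 after SA at 1.24 and 1.73, and wild type after SA at -0.87 and -0.67.

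In wild type leaves SA lowered the vacuolar SWEET genes, SWEET2 by 3.6-fold, SWEET17 by 3.74-fold and SWEET16 by 2.11-fold. The importer TMT2 fell 2.3-fold. SWEET13, a sucrose carrier, also fell, whereas SWEET4, a hexose carrier of the plasma membrane, and SWEET11 rose moderately. In tbf1 leaves SWEET2 and SWEET17 rose with SA instead, and SWEET4 rose 3.18-fold and SAG29 rose 3.63-fold. The index moved little with SA, by -0.30 in wild type and 0.13 in tbf1.

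For SWEET2 the 3 wild type arrays read -0.05, -0.09 and 0.05 after water spray and -1.84, -1.82 and -1.99 after SA. The tbf1 arrays read -1.39, -1.48 and -1.01 after water spray and -0.15, 0.10 and 0.14 after SA. The groups did not overlap in either genotype, and tbf1 leaves began lower under water and ended higher under SA. The SA response was -1.85 ± 0.11 (SE, adjusted p = 1.51e-12) in wild type and 1.33 ± 0.11 (adjusted p = 6.88e-10) in tbf1. The test of the difference between these responses, the interaction, gave 3.18 ± 0.16 (adjusted p = 5.25e-13). In the fit with the index, the responses were -1.86 and 1.33.

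SWEET17 read 1.29, 1.19 and 1.20 in wild type after water spray and -0.80, -0.79 and -0.43 after SA. In tbf1 it read 0.79, 0.89 and 1.19 after water spray and 1.61, 1.87 and 1.70 after SA. Wild type fell and tbf1 rose, with no overlap between treated and water arrays. The responses were -1.90 ± 0.14 (adjusted p = 3.63e-11) and 0.77 ± 0.14 (adjusted p = 7.73e-05), with an interaction of 2.67 ± 0.19 (adjusted p = 1.66e-10). After the index was added as a covariate the interaction was 2.70.

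SWEET16, a vacuolar carrier of several sugars, had group means of 0.20 after water and -0.87 after SA in wild type. In tbf1 they were 1.13 after water and 1.24 after SA. SWEET16 fell by 1.08 ± 0.17 in wild type (adjusted p = 1.13e-05), and the tbf1 difference of 0.11 ± 0.17 missed the threshold (adjusted p = 0.648). The interaction was 1.18 ± 0.24 (adjusted p = 0.000381).

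SWEET4 read -0.85, -0.73 and -0.61 in wild type after water spray and -0.22, -0.25 and -0.45 after SA. Mutant arrays read -0.26, -0.81 and -0.63 after water spray and 0.98, 1.14 and 1.17 after SA. It rose in both genotypes, by 0.42 ± 0.12 (adjusted p = 0.00687) in wild type leaves and 1.67 ± 0.12 in the mutant (adjusted p = 4.26e-11). The rise was larger in tbf1, with an interaction of 1.25 ± 0.17 (adjusted p = 2.53e-06).

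Among the other genes of clades I and II, SWEET1, a glucose carrier of the plasma membrane, differed by -0.38 ± 0.16 in wild type (adjusted p = 0.0682) and rose by 0.76 ± 0.16 in tbf1. Its interaction of 1.14 ± 0.22 was called (adjusted p = 0.000269). SWEET3 and SWEET6 fell in tbf1, by 0.57 and 0.45, and neither was called after quantile normalization (-0.50, adjusted p = 0.0517, and -0.32, adjusted p = 0.343). Of these, SWEET6 had a called interaction of -0.65 ± 0.24 (adjusted p = 0.0437), which was lost in 8 of 12 fits that left out 1 array (-0.69 to -0.55). The tbf1 fall of SWEET6 was lost in 4 of 6 such fits (-0.50 to -0.35). With the index as a covariate neither SWEET6 call passed. AtVEX1 then had a called interaction of 0.58 (adjusted p = 0.0313). Without the index, AtVEX1 and SWEET8, both known from pollen, and SWEET7 were not called in either genotype, with differences of 0.02, -0.23 and -0.12 in wild type and 0.30, -0.32 and 0.01 in tbf1.

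In clade III the phloem loader SWEET11 read 0.30, 0.50 and 0.51 in wild type after water spray and 0.89, 0.90 and 0.89 after SA. The mutant values were -1.29, -1.79 and -1.48 after water spray and -0.82, -0.78 and -0.82 after SA. It rose in both genotypes, but all tbf1 sprayed arrays lay below all wild type sprayed arrays. The rises were 0.46 ± 0.11 (adjusted p = 0.00119) and 0.71 ± 0.11 (adjusted p = 7.12e-06), and the interaction of 0.25 missed the threshold (adjusted p = 0.225).

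SAG29, a senescence-associated SWEET, read -0.09, -0.39 and -0.08 in wild type after water spray and 0.11, 0.03 and -0.03 after SA. In tbf1 it read -0.10, 1.05 and 1.28 after water spray and 2.12, 3.05 and 2.62 after SA. Treated tbf1 arrays were above all others, while the first tbf1 water array lay among the wild type values. The tbf1 rise was 1.86 ± 0.24 (adjusted p = 8.02e-07), the wild type difference 0.22 (adjusted p = 0.607), and the interaction 1.64 ± 0.34 (adjusted p = 0.000525).

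SWEET13 fell by 0.80 ± 0.14 in wild type (adjusted p = 7.21e-05) and differed by -0.06 in tbf1, with an interaction of 0.74 ± 0.20 (adjusted p = 0.00701). That interaction was 0.66 with the index as a covariate and just missed the threshold (adjusted p = 0.0506). SWEET14, known with SWEET13 for carrying gibberellin as well as sucrose, fell by 0.40 in tbf1 (adjusted p = 0.0217), a call lost without the second tbf1 water array (-0.27) or the second tbf1 SA array (-0.37), and after quantile normalization (-0.29). The nectary carrier SWEET9 and the flower-expressed SWEET10 were not called in either genotype.

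Among the vacuolar importers, TMT2 read 1.16, 1.06 and 0.76 in wild type after water spray and -0.31, -0.04 and -0.25 after SA. Mutant arrays read 0.34, 0.35 and 0.04 after water spray and -0.22, -0.51 and -0.23 after SA. It fell in both genotypes, by 1.20 ± 0.12 (adjusted p = 1.57e-08) and by 0.56 ± 0.12 (adjusted p = 0.000666). The fall was smaller in tbf1, with an interaction of 0.64 ± 0.17 (adjusted p = 0.00645). In the fit with the index this interaction was 0.47 and was not called (adjusted p = 0.0922).

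TMT1 read 0.54, 0.44 and 0.54 in wild type after water spray and 0.30, 0.40 and 0.41 after SA. The mutant values were 0.83, 0.50 and 0.60 after water spray and -0.11, -0.05 and -0.11 after SA. It fell in tbf1 by 0.73 ± 0.10 (adjusted p = 9.92e-07), with an interaction of -0.59 ± 0.13 (adjusted p = 0.00137). TMT3 read between -0.63 and 0.61 on all 24 arrays and was not called for SA, with differences of -0.16 and -0.08.

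Taking the 19 genes together, SA raised 2 and lowered 5 in wild type. Of all probe sets 32.0% were called there, 15.1% higher and 16.8% lower. In tbf1 SA raised 6 of the 19 and lowered 5, against 38.9% of all probe sets, 19.6% higher and 19.3% lower. After quantile normalization the tbf1 split was 6 higher and 2 lower, with 25.7% of all probe sets called. The interaction was called higher for 8 and lower for 2, against 29.3% of all probe sets, 16.6% higher and 12.7% lower. The median interaction of the 14 genes annotated as SWEET was 0.19, with 7 called, and that of all probe sets was -0.07. For the 5 other genes (AtVEX1, SAG29 and the TMT genes) it was 0.29, with 3 called.

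**Figure D2:**
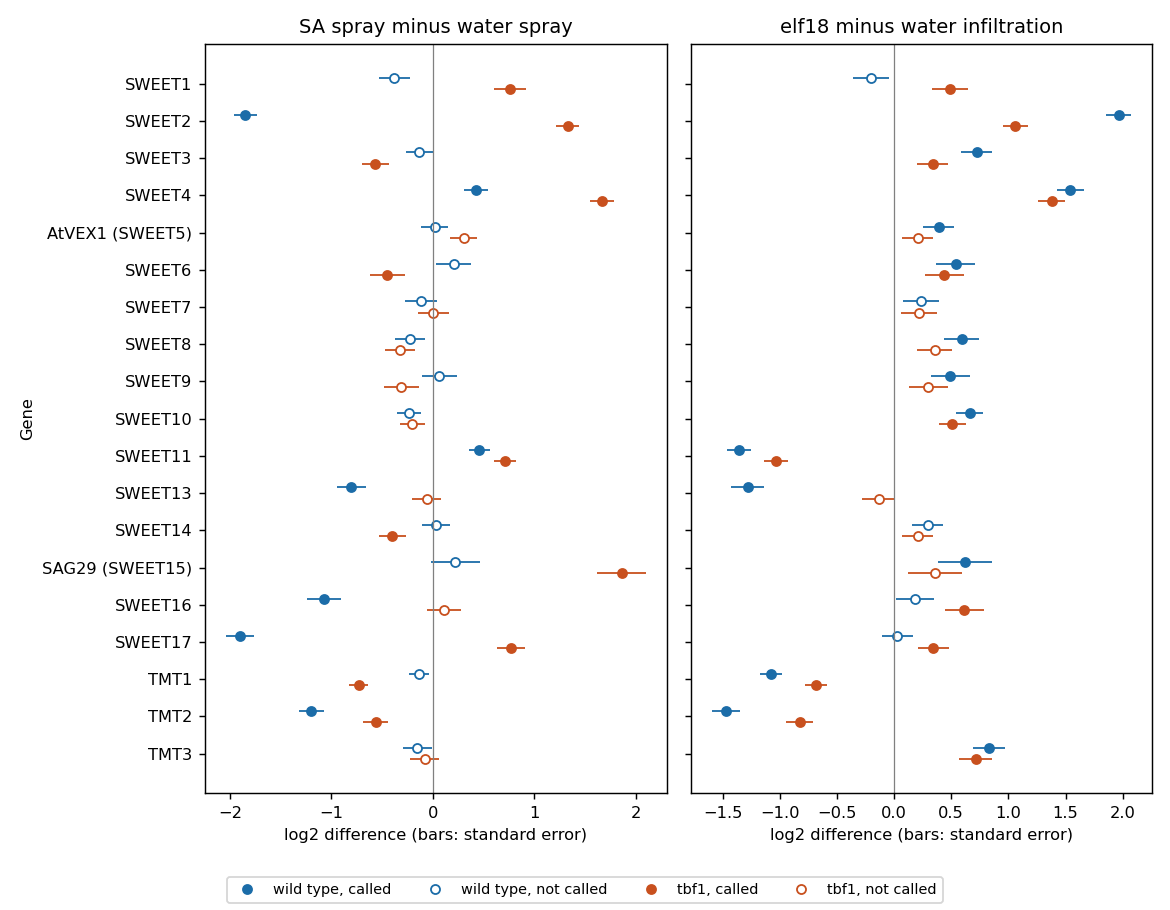
Response of each gene (rows) to SA (left) and to elf18 (right) as a log2 difference from the water control of the same route, in wild type (blue) and tbf1 (orange); bars are standard errors, and filled points passed the adjusted threshold. SWEET2 and SWEET17 lie on opposite sides of 0 for SA, whereas SWEET2, SWEET4 and SWEET11 lie on the same side in both genotypes for elf18.

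Under elf18, SWEET2 rose 3.9-fold and SWEET4 rose 2.91-fold in wild type leaves within 2 h. The phloem loader SWEET11 fell 2.56-fold, SWEET13 fell by 1.28 on the log2 scale, and the importers TMT1 and TMT2 fell. In tbf1 leaves SWEET2 and SWEET4 also rose and SWEET11, TMT1 and TMT2 also fell. SWEET13 had no called change in tbf1.

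For SWEET2 the wild type arrays read -0.94, -0.84 and -0.96 after water infiltration and 1.16, 1.05 and 0.94 after elf18. The tbf1 arrays read 0.44, 0.41 and 0.39 after water infiltration and 1.42, 1.49 and 1.52 after elf18. Treated and water arrays were separate in both genotypes, and tbf1 began from a higher value. The rises were 1.96 ± 0.11 in wild type (adjusted p = 2.82e-13) and 1.06 ± 0.11 in tbf1 (adjusted p = 2.69e-08), with an interaction of -0.90 ± 0.16 (adjusted p = 0.000277). In the fit with the index, they were 1.94 and 1.04, both still called.

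SWEET4 read -0.57, -0.70 and -0.44 in wild type after water infiltration and 0.95, 1.04 and 0.92 after elf18. In tbf1 it read 0.27, 0.33 and 0.22 after water infiltration and 1.68, 1.54 and 1.73 after elf18. It rose without overlap in both genotypes, by 1.54 ± 0.12 (adjusted p = 6.53e-11) and 1.38 ± 0.12 (adjusted p = 1.05e-09). The interaction of -0.17 ± 0.17 missed the threshold (adjusted p = 0.594), but after quantile normalization it was -0.53 and passed (adjusted p = 0.0382).

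SWEET17 read -0.01, -0.34 and 0.01 in wild type after water infiltration and -0.11, 0.14 and -0.29 after elf18. Mutant arrays read -0.35, -0.27 and -0.58 after water infiltration and -0.11, -0.14 and 0.07 after elf18. Wild type arrays overlapped, and the tbf1 rise was small, 0.34 (adjusted p = 0.0473), a call lost in 5 of 6 fits that left out 1 array (0.25 to 0.38) and in the fit with the index (0.26). SWEET16 rose by 0.62 in tbf1 (adjusted p = 0.00434) and differed by 0.18 in wild type, and the interaction of 0.43 missed the threshold (adjusted p = 0.25). With the index the tbf1 difference of SWEET16 was -0.55.

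SWEET11 read 0.11, 0.24 and 0.13 in wild type after water infiltration and -1.30, -1.12 and -1.15 after elf18. The mutant values were 0.85, 0.86 and 0.84 after water infiltration and -0.19, -0.11 and -0.24 after elf18. It fell without overlap by 1.35 ± 0.11 (adjusted p = 7.78e-11) and by 1.03 ± 0.11 (adjusted p = 1.89e-08), and the interaction of 0.32 missed the threshold (adjusted p = 0.161). The index differed by -1.29 and -1.19 in the same comparisons. Once the index was a covariate the SWEET11 difference was -1.03 ± 0.31 in wild type (adjusted p = 0.0228) and -0.74 ± 0.29 in tbf1 (adjusted p = 0.104).

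SWEET13 had means of 0.41 after water and -0.87 after elf18 in wild type, and of -0.45 and -0.58 in tbf1. The wild type fall of 1.28 ± 0.14 (adjusted p = 4.47e-08) was -1.04 with the index as a covariate and no longer passed (adjusted p = 0.101). The interaction of 1.15 ± 0.20 (adjusted p = 0.000324) was 1.13 with the index. The tbf1 water arrays lay below the wild type water arrays, by 0.86 ± 0.14 (adjusted p = 7.94e-05).

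TMT1 read -0.04, -0.05 and -0.02 in wild type after water infiltration and -1.15, -1.03 and -1.17 after elf18. In tbf1 it read 0.04, 0.09 and 0.02 after water infiltration and -0.49, -0.73 and -0.66 after elf18. It fell by 1.08 ± 0.10 (adjusted p = 6.83e-10) and by 0.68 ± 0.10 (adjusted p = 2.2e-06). The interaction of 0.40 ± 0.13 (adjusted p = 0.0465) was lost in 10 of 12 fits that left out 1 array and became -0.17 after quantile normalization.

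TMT2 read 0.39, 0.37 and 0.46 in wild type after water infiltration and -1.08, -0.90 and -1.23 after elf18. Mutant arrays read 0.35, 0.44 and 0.42 after water infiltration and -0.32, -0.51 and -0.44 after elf18. It fell by 1.47 ± 0.12 (adjusted p = 2.23e-10) and by 0.83 ± 0.12 (adjusted p = 4.92e-06), with an interaction of 0.65 ± 0.17 (adjusted p = 0.0112). After quantile normalization the TMT2 interaction of 0.40 missed the threshold (adjusted p = 0.12). TMT3 moved the other way, with rises of 0.83 in wild type and 0.71 in tbf1. The elf18 responses of the TMT genes were called in neither genotype once the index was a covariate, whereas the TMT2 interaction kept its call. The wild type differences were then -0.58 for TMT1 (adjusted p = 0.135), -0.96 for TMT2 (adjusted p = 0.0591) and 1.13 for TMT3 (adjusted p = 0.0673). In tbf1 they were -0.22 (adjusted p = 0.614), -0.36 (adjusted p = 0.532) and 0.99 (adjusted p = 0.111).

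Smaller rises were called in wild type for SWEET3 (0.72), SWEET10 (0.66), SAG29 (0.62), SWEET8 (0.59), SWEET6 (0.54), SWEET9 (0.49) and AtVEX1 (0.39). In tbf1 they were called for SWEET10 (0.51), SWEET1 (0.49), SWEET6 (0.44) and SWEET3 (0.34). Treated and water arrays of SWEET9 overlapped in wild type. Among the wild type calls, SWEET9 and SAG29 were lost in 4 of 6 fits that left out 1 array. AtVEX1 and SWEET6 were lost without the first elf18 array (0.35 and 0.44) and without 1 water array each. In tbf1, SWEET3 was lost in 5 of 6 fits and SWEET6 in 4 of 6, SWEET6 falling to 0.20 (adjusted p = 0.36) without the third elf18 array. The tbf1 rise of SWEET1 was 0.38 (adjusted p = 0.0951) without the first water array. None of these smaller rises was called with the index as a covariate. In wild type the differences were then 0.37 for SWEET3, 0.23 for SWEET10, 0.12 for SWEET8 and 0.32 for SWEET6, and they turned to -1.08 for SAG29, -0.44 for SWEET9 and -0.50 for AtVEX1. In tbf1 they were 0.11 for SWEET10, 0.17 for SWEET1, 0.24 for SWEET6 and 0.01 for SWEET3. SWEET1 had an interaction of 0.69 ± 0.22 (adjusted p = 0.0352), which was 0.42 (adjusted p = 0.097) without the first wild type elf18 array and was lost in 8 of 12 fits that left out 1 array. SWEET7 and SWEET14 were not called in either genotype, with 0.24 and 0.29 in wild type and 0.22 and 0.21 in tbf1.

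The elf18 response was called higher for 10 of the 19 genes and lower for 4 in wild type. Of all probe sets 58.1% were called there, 31.2% higher and 26.9% lower. In tbf1 it was called higher for 9 and lower for 3, against 41.7% of all probe sets, 18.0% higher and 23.8% lower. The interaction was called for 4 genes higher and 1 lower, against 15.5% of all probe sets, 9.82% higher and 5.67% lower. After quantile normalization these interaction counts were 1 higher and 2 lower, with 12.3% of all probe sets called. The median elf18 response in wild type was 0.39 for the 14 genes annotated as SWEET and 0.39 for the 5 others. In tbf1 these medians were 0.35 and 0.20. Those of all probe sets were 0.13 in wild type and 0.07 in tbf1.

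**Figure D3:**
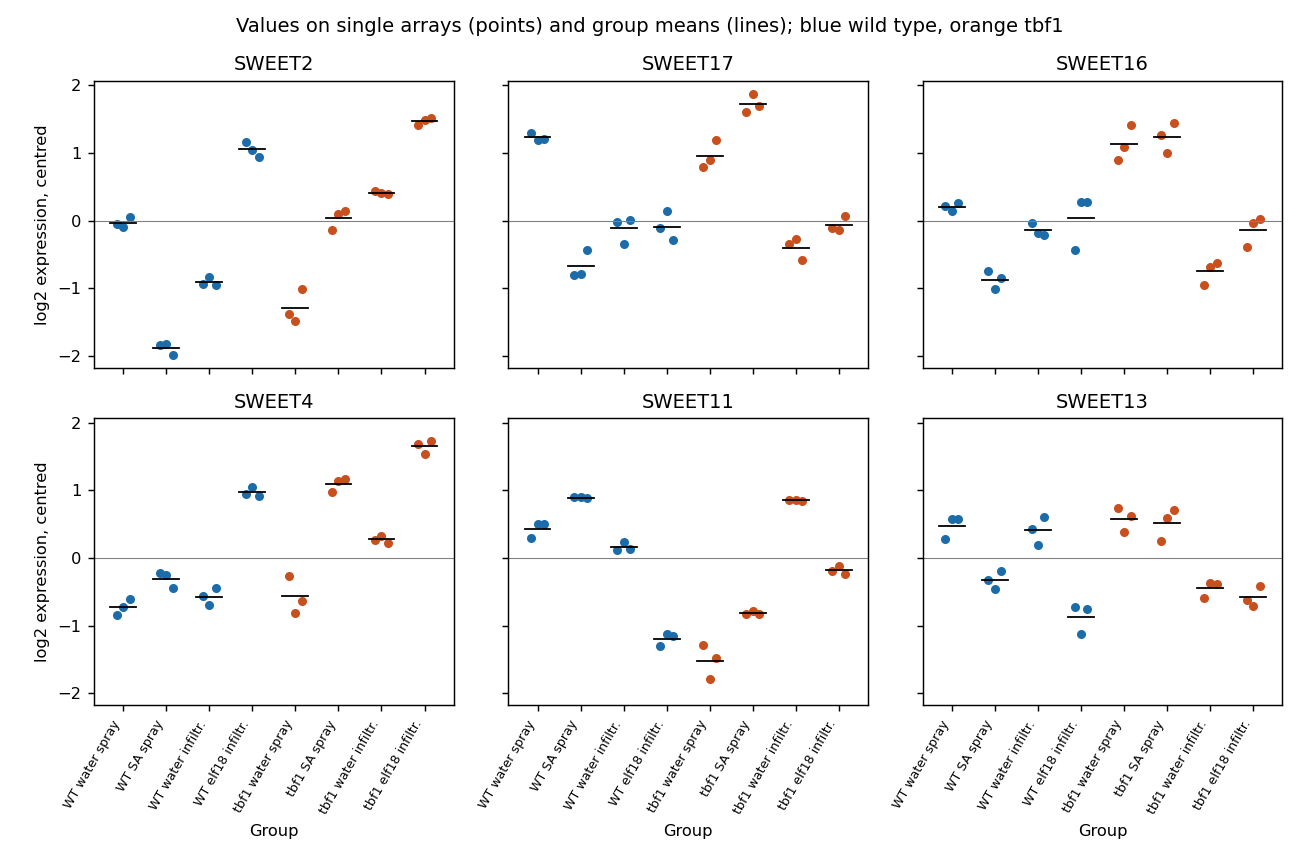
Centred log2 value on each of the 24 arrays (points) for SWEET2, SWEET17, SWEET16, SWEET4, SWEET11 and SWEET13, by group, with horizontal marks at the group means. Wild type SA arrays of SWEET2 lie between -1.99 and -1.82, below the wild type water spray arrays, while tbf1 SA arrays lie above the tbf1 water spray arrays.

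The responses to SA and elf18 were also set against each other within each genotype, in contrasts added after seeing the data. They differ in hormone or peptide, route and sampling time together. In wild type, where 48.4% of all probe sets were called, the elf18 response minus the SA response was 3.81 ± 0.16 for SWEET2 (adjusted p = 2.8e-15), 1.93 for SWEET17, 1.26 for SWEET16 and -1.81 ± 0.15 for SWEET11. In the fit with the index, SWEET16 was 0.28 and lost its call (adjusted p = 0.626), while SWEET17 (1.86) and SWEET11 (-1.57) kept theirs. Also called in wild type were SWEET4 (1.12), TMT3 (0.98), SWEET10 (0.89), SWEET3 (0.85) and SWEET8 (0.82) higher and TMT1 (-0.94) lower. Of these, SWEET4 (1.51) and TMT3 (1.22) were still called with the index. In tbf1, where 45.6% were called, the difference between the responses was -0.27 ± 0.16 for SWEET2 (adjusted p = 0.169) and -0.29 for SWEET4, neither of them called. SWEET11 at -1.74 and SAG29 at -1.50 were called lower in tbf1, and SAG29 was -3.24 with the index (adjusted p = 0.00387). Called higher in tbf1 were SWEET3 (0.90), SWEET6 (0.89), TMT3 (0.79), SWEET10 (0.71), SWEET8 (0.68), SWEET9 (0.61) and SWEET14 (0.61). None of these higher calls was kept with the index.

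The genotypes were also compared directly within each treatment. After SA, tbf1 leaves held more SAG29 (5.9-fold), SWEET17 (2.40 on the log2 scale), SWEET16 (2.11), SWEET2 (1.91) and SWEET4 (1.41), and less SWEET11 (-1.70). After water spray SWEET2 (-1.26), SWEET11 (-1.96) and SWEET1 (-0.47) were lower in tbf1. SWEET2, SWEET4 and SWEET11 were higher in tbf1 after water infiltration (1.33, 0.85 and 0.69) and after elf18 (0.42, 0.68 and 1.01).

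After SA the other called SWEET genes were SWEET13 (0.85), SWEET8 (0.76), SWEET1 (0.67), SWEET10 (0.61), SWEET3 and SWEET7 (both 0.55), SWEET9 (0.43) and AtVEX1 (0.35), all higher in tbf1. TMT3 was higher by 0.49 and TMT1 lower by 0.46. Groups overlapped for SWEET7. AtVEX1 and SWEET9 were lost in 4 of 6 fits that left out 1 array, and TMT3 (0.35) without the first wild type SA array. In all, 14 genes were higher and 2 lower, against 58.1% of all probe sets called, 31.1% higher and 27.0% lower. The 5' minus 3' index differed by -2.01 in this comparison, lower in tbf1. With it as a covariate SWEET2 (1.87, adjusted p = 0.0289), SWEET4 (2.19, adjusted p = 0.0138) and SWEET17 (2.26, adjusted p = 0.0317) still passed, whereas the other 13 calls did not, among them SWEET16 (0.13, adjusted p = 0.931), SAG29 (-0.09, adjusted p = 0.968) and SWEET11 (-1.21, adjusted p = 0.124). That fit called 6.01% of all probe sets and gave SAG29 an SE of 0.92.

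After water spray 10 genes were called higher and 4 lower in tbf1, against 68.8% of all probe sets, 39.9% higher and 28.8% lower. The higher ones were SWEET3 (0.99), SWEET16 (0.93), SAG29 (0.92), SWEET8 (0.86), SWEET9 (0.80), SWEET6 (0.71), SWEET14 (0.70), SWEET10 (0.57), SWEET7 (0.43) and TMT3 (0.42), and TMT2 was lower by 0.75. Groups overlapped for SWEET7 and SAG29. Calls were lost in 3 of 6 fits that left out 1 array for SWEET7, and in 2 of 6 for SWEET1 (-0.38 and -0.35) and TMT3 (0.32 and 0.33). The index differed by -2.44, lower in tbf1, and centring each array moved the median of all probe sets by -0.11. With the index as a covariate limma called none of the 19 genes and 0.954% of all probe sets. Before adjustment 5 of the 19 had a p below 0.05, a threshold at which the share of all probe sets was not computed. In that fit SWEET11 was -1.35 ± 0.56 (SE) and SAG29 -2.30 ± 1.11, so the contrast was estimated with little precision.

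After water infiltration 3 genes were called higher and 2 lower in tbf1, against 20.6% of all probe sets, 12.0% higher and 8.55% lower. The lower ones were SWEET13 (-0.86) and SWEET16 (-0.61), the latter lost without the first wild type (-0.55) or the first tbf1 array (-0.51). The index differed by 0.54, and SWEET2, SWEET4, SWEET11 and SWEET13 were still called with it as a covariate, against 11.9% of all probe sets. After elf18, 5 were called higher and none lower, against 36.9% of all probe sets, 20.8% higher and 16.1% lower. They included TMT2 (0.64) and TMT1 (0.49), and after quantile normalization both calls were lost, with TMT1 at -0.05 and TMT2 at 0.22. The index differed by 0.64, and SWEET11 was the 1 gene of the 19 still called with it, against 18.5% of all probe sets.

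The water controls of the 2 routes differed within each genotype, in route and in time after treatment together. In wild type, infiltrated leaves had less SWEET17 (-1.34), SWEET1 (-1.12), SWEET2 (-0.88), TMT2 (-0.59), TMT1 (-0.54) and SWEET11 (-0.27). No gene was called higher, and the 6 calls stood against 35.8% of all probe sets, 14.0% higher and 21.8% lower. The SWEET11 call was lost in 4 of 6 fits that left out 1 array.

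In tbf1, infiltrated leaves had more SWEET11 (2.37, 5.17-fold), SWEET2 (1.71) and SWEET4 (0.84) than sprayed leaves. They had less SWEET16 (-1.88), SWEET17 (-1.36), SWEET3 and SWEET8 (both -1.11), SWEET13 (-1.03), SAG29 (-1.01), SWEET1 (-0.96), SWEET9 (-0.80), SWEET6 and SWEET10 (both -0.76), SWEET14 (-0.62), TMT1 (-0.59), TMT3 (-0.56) and SWEET7 (-0.50). These 3 and 14 calls stood against 75.4% of all probe sets, 30.4% higher and 45.0% lower. Groups overlapped for SAG29. The index differed by 2.51, and scaling each array to its median moved the median of all probe sets by 0.14. With the index as a covariate limma called none of the 19 and 6.61% of all probe sets. Before adjustment 4 of the 19 had a p below 0.05, again without a share of all probe sets at that threshold. Precision was again low, with SWEET11 at 1.75 ± 0.57 (SE) and SAG29 at 2.29 ± 1.13.

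Over the 8 group means some genes ran alike and others did not. Every pair among SWEET3, SWEET6, SWEET7, SWEET8, SWEET9, SWEET10 and SWEET14 had a Pearson r of 0.67 to 0.97. SWEET3 and SWEET8 were the most alike (Pearson r = 0.97, n = 8 groups). SWEET16 was most like SWEET17 (0.89), SWEET2 most like SWEET4 (0.78), TMT1 most like TMT2 (0.79) and SWEET10 most like TMT3 (0.94). SWEET11 had no close match, with 0.46 to TMT2 at best, and ran opposite to SWEET9 (-0.97). Among the 91 pairs of the 14 genes annotated as SWEET the median r was 0.36, and 20 pairs were below 0. SWEET10 and SWEET13, which are neighbours in the genome, had an r of 0.01. All these values come from the same 24 arrays.

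Several genes also followed the 5' minus 3' index over the same 8 groups. The r with the index was -0.96 for SWEET9, -0.93 for SWEET8, -0.90 for SWEET3 and SWEET10, and 0.94 for SWEET11. It was below -0.8 for 8 genes (SWEET3, SWEET6, SWEET7, SWEET8, SWEET9, SWEET10, SWEET14 and SWEET16) and above 0.8 for 1 (SWEET11). It was near 0 for SWEET2 (-0.07) and moderate for SWEET4 (-0.37) and SWEET17 (-0.52). The part of RNA quality in the levels of the genes that followed the index was not tested beyond the covariate fits.

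**Figure D4:**
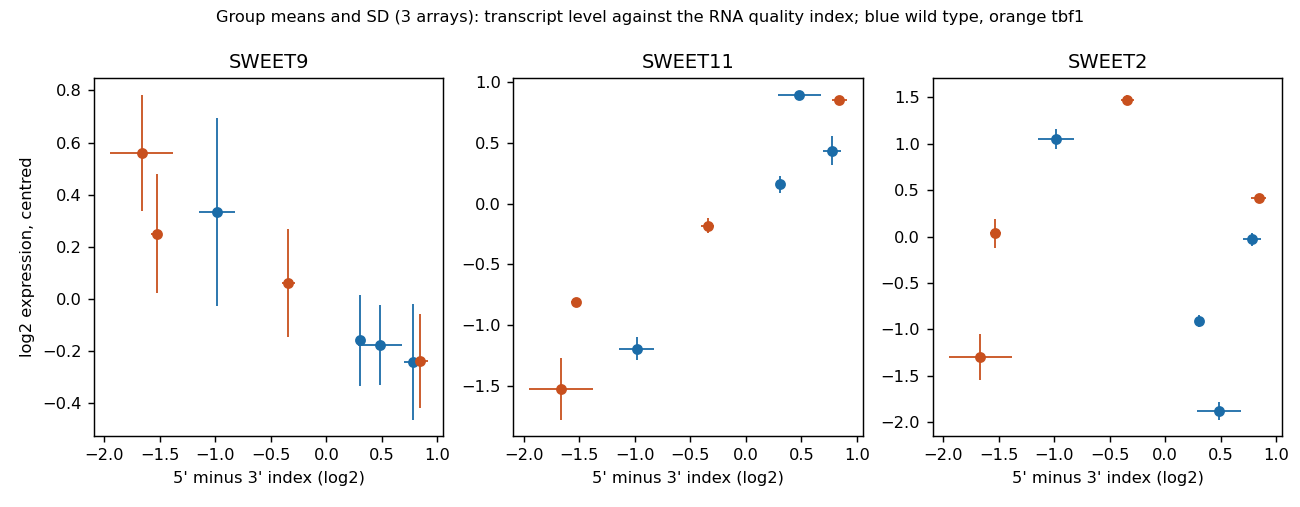
Group mean of SWEET9, SWEET11 and SWEET2 (centred log2 value) against the group mean of the 5' minus 3' index (log2 difference of centred values), 8 groups with 3 arrays each. SWEET9 falls with the index (r = -0.96), SWEET11 rises with it (r = 0.94) and SWEET2 shows no such line (r = -0.07).

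Of 58 further genes listed for sugar transport and metabolism, 7 were matched to a probe set with 1 annotated gene. The annotation lists no gene for 8730 probe sets, so the others may still be on the array. In wild type SA raised 1 and lowered 5 of them, against 15.1% of all probe sets called higher and 16.8% lower. CWINV6, named as a cell wall invertase, rose by 2.08, and SFP2 and SFP1, ERD6-like carriers, fell by 1.37 and 0.68. In tbf1 SFP1 rose by 0.94, and the interactions were 1.62 for SFP1, 1.15 for SFP2 and -1.80 for CWINV6. Under elf18 SPS4F, a sucrose phosphate synthase, fell by 2.05 in wild type leaves and by 0.95 in the mutant, and VI1, a vacuolar invertase, fell by 1.05 and 0.68. The median SA response of the 7 was -0.56 in wild type and 0.07 in tbf1. Among the leaf markers, the elf18 response of PRK was -2.14 in wild type and -1.63 in tbf1, and PSAN fell by 0.34 in wild type. The elf18 difference of PSAN in tbf1 was -0.16 and not called. After SA, PRK (adjusted p = 1.8e-14) and FAMA (-0.57, adjusted p = 0.00213) were lower in tbf1 than in wild type, while PSAN differed by 0.12 (adjusted p = 0.225). With SA in tbf1 PRK and FAMA fell by 0.85 and 0.82, and PSAN rose by 0.45. In the elf18 comparisons the index differed by -1.29 in wild type and -1.19 in tbf1, and after SA by -2.01 between the genotypes. Values with the index as a covariate are not given for the listed genes and markers, and the part of RNA quality in them was not tested. The part of a changed leaf make-up in the transporter values was not tested.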

How the data were processed

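Per the labels, RNA was amplified, biotin-labelled and hybridised to single-colour arrays, and per the submitters' processing notes the values were made with RMA. Its version is not stated. The deposited log2 values (base 2 assumed, as RMA gives) are centred per probe set (largest absolute median 5e-07), so brightness above background is not known. Column medians ran from -0.05 to 0.12. The number of arrays limits the precision.

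The fit over the 24 arrays used limma 3.58.1 (R 4.3.3), a mean for each group, 16 residual degrees of freedom and Benjamini-Hochberg adjustment over 22746 probe sets per contrast. The 64 control probe sets were left out. Calls required an adjusted p below 0.05, and the limma code was tested on simulated data. The fit uses 1 spread for all groups, while the mean SD over probe sets reached 0.24 (tbf1 water spray), 0.21 (wild type elf18) and 0.16 (tbf1 SA), with at most 0.13 elsewhere. With 3 against 3 arrays an exact permutation test of a single gene cannot go below 0.1.

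Of the probe sets, 13513 had 1 gene in the annotation, 503 several and 8730 none listed, and 13436 were matched to RefSeq TAIR10.1 symbols. The genes and lists were chosen with earlier results of these data known. The naming rule took every called SWEET gene of a contrast, up to 4 other genes in each direction and up to 2 SWEET genes not called. Other SWEET genes that were not called were named as well, after their values were seen, so that every gene is accounted for. The rule asked for values on each array for the 4 SWEET and 4 other genes with the largest called differences. Of the other genes, TMT1 and TMT2 have them for both treatments, SAG29 for SA alone and TMT3 only as a range. SWEET13 and SWEET16 were added to the plot by array after their values were seen. Replicate numbers were not used to pair the arrays, since in no contrast were all 3 correlations of same-numbered deviations above 0.1. That rule cannot show that same-numbered arrays share nothing. Alternatives were the replicate number as a block, quantile normalization, centred arrays, the contrast's own arrays, the index as a covariate, array weights, a trended robust spread, a low-variation filter, a 2-fold minimum and leaving out each array. Quantile normalization was run on the centred values, so it gives every array the same spread around the gene medians. It removes real differences in that spread as well, so a call lost or a sign turned there does not tell how sound a result is.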

Additional observations from a re-analysis of the deposited data

Results flagged for a closer look

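These genes responded differently in tbf1 and wild type by limma's test of the interaction. For SA, the tbf1 response minus the wild type response was 3.18 for SWEET2, 2.67 for SWEET17, 1.64 for SAG29, 1.25 for SWEET4, 1.18 for SWEET16, 1.14 for SWEET1, 0.74 for SWEET13 and 0.64 for TMT2. It was -0.65 for SWEET6 and -0.59 for TMT1. For elf18 it was 1.15 for SWEET13, 0.69 for SWEET1, 0.65 for TMT2 and 0.40 for TMT1, and it was -0.90 for SWEET2. Arrays far from their group were not sought, because the groups hold 3 arrays each.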

How the results depend on the processing

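A 2-fold minimum left 4 called genes for SA in wild type, 3 in tbf1 and 6 for the interaction, against 8.89%, 6.81% and 10.2% of all probe sets. For elf18 it left 6, 3 and 1, against 15.9%, 9.45% and 3.30%. For tbf1 against wild type it left 6 for SA, 2 for water spray, 1 for elf18 and 1 for water infiltration, against 18.9%, 17.2%, 4.09% and 2.63%. Between the water routes it left 2 in wild type and 8 in tbf1, against 10.4% and 26.4%. With the index as a covariate the counts were 3 for elf18 in wild type and 2 in tbf1, with 16.6% and 10.2% of all probe sets called. For tbf1 against wild type they were 0 after water spray, 3 after SA and 1 after elf18, and 0 between the water routes in tbf1, with 0.954%, 6.01%, 18.5% and 6.61% of all probe sets called. For the counts of 0, 5 and 4 genes had an unadjusted p below 0.05, and with array weights limma called 12 and 17. After quantile normalization 3 genes were called for the elf18 interaction and 3 for tbf1 against wild type after elf18, with 12.3% and 28.1% of all probe sets called. Leaving out 1 array gave 3 to 5 calls for the elf18 interaction. The replicate block left every count within 1.5 times, with 7, 12 and 10 calls for SA in wild type, in tbf1 and for the interaction, and of 228 gene results 2 lost and 2 gained a call. No share of all probe sets was computed with the block, with array weights, with an array left out or at an unadjusted p below 0.05. Those counts therefore stand without a background.

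Directions turned mainly with the index. For elf18 in wild type the values became -0.50 for AtVEX1, -0.44 for SWEET9 and -1.08 for SAG29, and in tbf1 -0.55 for SWEET16. For tbf1 against wild type after water spray they became -0.031 for SWEET8, -0.96 for SWEET9, -0.24 for SWEET10, -2.30 for SAG29, -1.48 for SWEET16 and 0.21 for TMT2. After SA they became -1.04 for AtVEX1, -1.02 for SWEET9, -0.067 for SWEET10, -0.094 for SAG29 and 0.32 for TMT1. Between the water routes in tbf1 they became -0.13 for SWEET4, 1.01 for SWEET9, 0.075 for SWEET10, 2.29 for SAG29 and 0.58 for SWEET16. For elf18 minus SA in tbf1, SWEET9 became -0.34. After quantile normalization TMT1 became -0.17 in the elf18 interaction and -0.046 for tbf1 against wild type after elf18. In the fit with the index SAG29 had an SE of 1.11 for tbf1 against wild type after water spray. Between the water routes in tbf1 its SE was 1.13. The cause was not tested.

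Of the 228 gene results, those that kept direction and call numbered 205 under quantile normalization, 214 with centred arrays, 147 with the index, 218 with array weights, 226 with a trended robust spread and 218 with the contrast's own arrays. Of 1596 results that left out 1 array, 81 lost a call, 19 gained one and none turned. The low-variation filter left out AtVEX1. Depth in the sense of brightness is unknown for these centred values.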
